A study of Mus musculus with 2 samples.

Results

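Dividing natural killer (NK) cells in G2 and M phase were described among NKp46-positive cells sorted from CT26_b2m-/- tumours, which are grown from a mouse colon carcinoma line and lack beta-2 microglobulin, the light chain of MHC class I. A barcode counted as a member when it had at least 1 UMI of Ncr1, the gene of NKp46, under 0.15% of its UMIs from 6 stroma genes (Col1a1, Col1a2, Sparc, Cald1, Pcolce and Lrp1), and at least 4 UMIs over 8 genes of G2 and M phase. The 8 genes are Ccnb1, Ccnb2, Cenpa, Cdc20, Cenpe, Hmmr, Knstrn and Cdkn3, and their summed UMIs, called M here, also had to reach S, the summed UMIs of the 6 S phase genes Esco2, Rrm2, Pclaf, Hist1h2ab, Hist1h2ae and Hist1h1b. Of 20821 barcodes, 17859 had an Ncr1 UMI and passed the stroma limit, and 2463 of these were members, 1272 in the IL-15SA+IL-21Fc library and 1191 in the IL-15SA library. The other 15396 Ncr1 barcodes, 9037 and 6359 in the same order of libraries, are the reference.

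In G2, a cell that has copied its DNA builds up the cyclins and kinases that start mitosis, and in M phase it condenses its chromosomes, ties them to a spindle, checks each attachment, separates the sister chromatids and splits. Many genes of these steps are transcribed late in the cycle, and several of their proteins are then destroyed through the anaphase-promoting complex. NK cells are innate lymphocytes that kill with perforin and granzymes, and interleukin 15 drives their survival and division, while interleukin 21 is known to shape their maturation and effector functions.

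All cells came from CT26_b2m-/- tumours and were sorted as CD45.2+CD3-NKp46+. The IL-15SA+IL-21Fc group received both agents named in its title, and the IL-15SA group received IL-15SA without IL-21Fc, so IL-15SA is common to both groups. The sources used here do not give strain, age, doses or schedules, and no untreated group is analysed. Each group is 1 library of cells pooled per treatment, so no difference below has a replicate check or a p-value.

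The libraries held 12435 barcodes with 35336180 UMIs for IL-15SA+IL-21Fc and 8386 barcodes with 30893388 UMIs for IL-15SA. They shared 60 barcode sequences, and 0 of these were members in both. Levels are CPM, a gene's UMIs per 1000000 UMIs summed over the barcodes of a class in 1 library, and 95% intervals cover counting error only. Members held more UMIs than the other Ncr1 barcodes, a median of 3357 against 2341 in the IL-15SA+IL-21Fc library and 4233 against 3055 in the IL-15SA library. S phase barcodes, those with S of at least 4 and above M, held 4065 and 4955. A rule in UMIs reaches deep barcodes more easily, so depth stands beside the shares below.

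Members were chosen by the UMIs of these genes, whose levels are therefore given as a description. Ccnb2, which encodes cyclin B2, a partner of the mitotic kinase CDK1, was at 2441 CPM in members and 292 CPM in the other Ncr1 barcodes of the IL-15SA+IL-21Fc library. In the IL-15SA library it was at 1858 CPM in members and 284 CPM in the others. Ccnb2 alone gave 57.9% and 52.9% of all M UMIs in members of the IL-15SA+IL-21Fc and IL-15SA libraries, so M leans on 1 gene. Cenpa, which encodes the histone H3 variant of centromeres, was at 719.6 against 100.2 CPM in the IL-15SA+IL-21Fc library and at 675 against 119.6 CPM in the IL-15SA library, members first. Ccnb1, the cyclin B1 gene, was at 154 against 19.1 CPM and at 154 against 24.2 CPM. Cdc20, the activator of the anaphase-promoting complex, was at 177 against 22.0 CPM and at 163 against 28.1 CPM. Cenpe, a kinesin that moves chromosomes to the spindle equator, was at 183 against 31.9 CPM and at 169 against 36.4 CPM. Hmmr, a spindle-associated hyaluronan receptor, was at 179 against 27.8 CPM and at 181 against 33.2 CPM. Knstrn, which encodes a kinetochore and spindle protein, was at 158 against 27.1 CPM and at 132 against 30.3 CPM, and Cdkn3, a phosphatase that acts on CDK, was at 206 against 34.9 CPM and at 177 against 35.0 CPM. The S genes were chosen against only where they passed M, and Pclaf, a PCNA-binding factor, stood at 539.9 against 402 CPM and at 557 against 473 CPM. The label thus holds on all 5 of its markers, Ccnb2, Cenpa, Cdc20, Cenpe and Hmmr, although by construction of the rule.

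Genes that peak in G2 and M phase are known to carry a pair of promoter elements, the cell cycle homology region (CHR, TTTGAA) bound by the DREAM and MuvB complexes and CCAAT boxes bound by NF-Y. The sequences below show where these letters lie for the 5 marker genes. They are RefSeq promoters of GRCm38.p6, printed 5′ to 3′ on the gene's strand from 200 bases before to 30 bases after the annotated start, with TTTGAA and CCAAT in capitals on either strand, where a box read on the other strand appears as ATTGG. Ccnb2 is at chr9:70421525-70421754 (minus strand), Cenpa at chr5:30666686-30666915 (plus strand), Cdc20 at chr4:118437314-118437543 (minus strand), Hmmr at chr11:40733408-40733637 (minus strand) and Cenpe at chr3:135212363-135212592 (plus strand).
Ccnb2: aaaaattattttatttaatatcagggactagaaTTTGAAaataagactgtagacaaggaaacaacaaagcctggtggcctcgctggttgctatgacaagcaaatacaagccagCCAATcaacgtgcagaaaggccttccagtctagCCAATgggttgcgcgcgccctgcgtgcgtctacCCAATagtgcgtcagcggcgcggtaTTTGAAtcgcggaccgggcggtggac
Cenpa: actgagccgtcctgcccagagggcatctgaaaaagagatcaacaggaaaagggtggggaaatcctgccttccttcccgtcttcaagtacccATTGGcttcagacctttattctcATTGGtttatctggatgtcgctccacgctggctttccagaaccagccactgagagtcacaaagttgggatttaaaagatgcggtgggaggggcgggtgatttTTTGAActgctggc
Cdc20: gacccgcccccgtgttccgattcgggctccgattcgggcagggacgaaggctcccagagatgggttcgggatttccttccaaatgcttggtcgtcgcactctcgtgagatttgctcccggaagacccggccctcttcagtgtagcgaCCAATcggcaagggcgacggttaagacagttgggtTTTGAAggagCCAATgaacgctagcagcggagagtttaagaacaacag
Hmmr: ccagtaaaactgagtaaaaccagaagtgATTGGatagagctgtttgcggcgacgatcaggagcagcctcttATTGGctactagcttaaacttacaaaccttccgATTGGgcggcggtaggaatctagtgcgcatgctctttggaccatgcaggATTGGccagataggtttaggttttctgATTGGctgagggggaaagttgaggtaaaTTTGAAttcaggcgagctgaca
Cenpe: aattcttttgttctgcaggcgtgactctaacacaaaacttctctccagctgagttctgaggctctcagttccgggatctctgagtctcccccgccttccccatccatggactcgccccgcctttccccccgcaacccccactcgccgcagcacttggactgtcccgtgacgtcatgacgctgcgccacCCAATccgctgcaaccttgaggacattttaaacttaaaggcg
In Ccnb2 the capitals mark 3 CCAAT boxes starting at -87, -54 and -21 relative to the start and TTTGAA at base 5 after it, with another TTTGAA at -167. Cdc20 holds TTTGAA at -18 between 2 CCAAT boxes, Hmmr holds 5 CCAAT boxes in reverse orientation with TTTGAA at base 9, Cenpa holds 2 in reverse orientation with TTTGAA at base 17, and Cenpe holds 1 CCAAT box and no TTTGAA. The motifs do not overlap one another in these 5 windows. Over 300-base windows on both strands, from 250 bases before to 50 after the start, TTTGAA occurred in 5 of the 8 M genes (62.5%) and CCAAT in 7 of 8 (87.5%), with neither in Knstrn. Over all 27025 genes of the table the shares were 18.1% and 37.9%. Of the 12 genes outside the rule that were highest in members, named below, 11 matched an entry, and 63.6% held TTTGAA and 90.9% CCAAT. Both motifs together stood in 40.4% of the 89 matched genes of 9 mitosis lists with 109 genes, against 7.12% of all genes. The licensing and replication genes, of which 24 of 30 matched, held TTTGAA in 12.5%, CCAAT in 62.5% and the E2F motif TTTGGCGC in 20.8%, against 0.537% of all genes for the last. The cytotoxic effector genes, of which 21 of 23 matched, held TTTGAA in 19.0% and CCAAT in 23.8%. A match describes letters and is neither a binding site nor a cause.

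Members had a median M of 13 UMIs (quartiles 6 and 21, highest 79) in the IL-15SA+IL-21Fc library and 12 UMIs (6 and 23, highest 95) in the IL-15SA library, spread over a median of 4 of the 8 genes in both. In 47 and 30 members Ccnb2 was the only M gene with a UMI. At the threshold, 149 and 155 members had M of exactly 4, while 321 and 258 barcodes with M of 3 and M of at least S stayed outside, with median UMIs of 2390 and 2868 inside and 2402 and 2863 outside. A further 868 and 824 barcodes had M of at least 4 but more S than M and count among the others. The reference therefore holds cycling cells, and the barcodes with M and S of 0, 2748 and 1293, give a second one. Among members, 14.9% and 11.6% had S of 0, and 46.5% and 55.2% had S of at least 4.

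**Figure D1:**
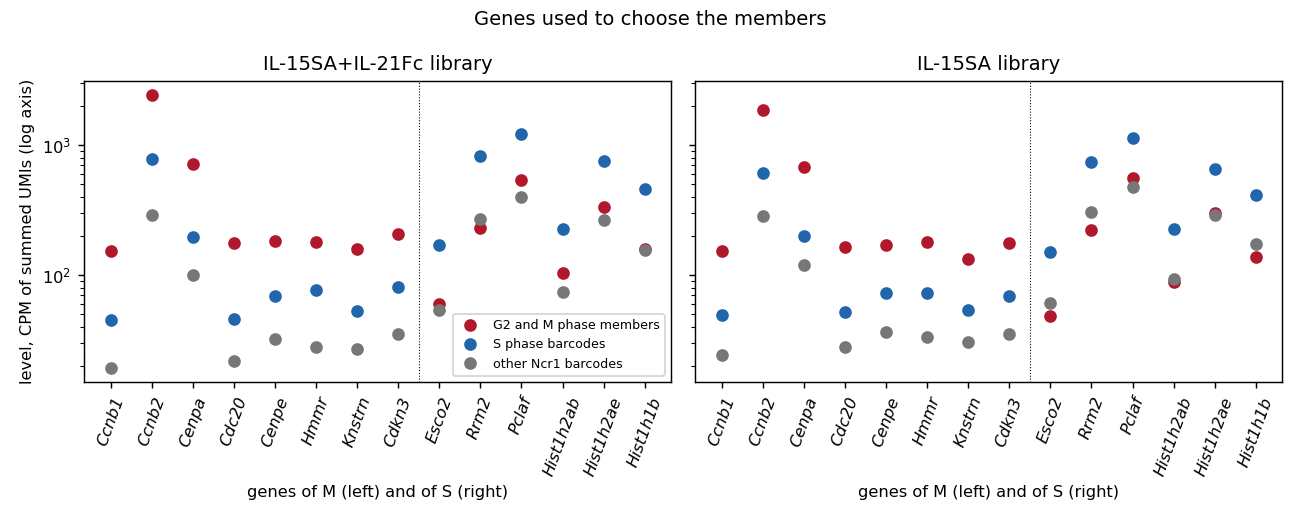
Levels (CPM, log axis) of the 8 genes of M and the 6 genes of S in members, S phase barcodes and the other Ncr1 barcodes, 1 panel per library. Ccnb2 stood at 2441 CPM in members and 292 CPM in the others of the IL-15SA+IL-21Fc library, and the S genes were highest in S phase barcodes.

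The share of Ncr1 barcodes in G2 and M phase was 12.3% (95% exact binomial interval 11.7 to 13.0, 1272 of 10309) in the IL-15SA+IL-21Fc library and 15.8% (14.96 to 16.6, 1191 of 7550) in the IL-15SA library. After every barcode was thinned to 2000 UMIs, with 3507 and 1739 shallower barcodes left out, the shares were 14.6% (13.8 to 15.5) and 14.4% (13.5 to 15.3). Thinned to 1000 UMIs with M of at least 2, which left out 0 barcodes, they were 14.9% (14.3 to 15.6) and 16.7% (15.8 to 17.5). The order of the libraries thus turned with the depth used, and no order is read from these shares. S phase barcodes made up 15.6% (14.9 to 16.3) in the IL-15SA+IL-21Fc library and 21.1% (20.2 to 22.0) in the IL-15SA library, and 16.7% and 17.9% after thinning to 2000 UMIs. Of the barcodes in either class, members were 44.2% (42.4 to 46.0) and 42.8% (40.9 to 44.7).

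**Figure D2:**
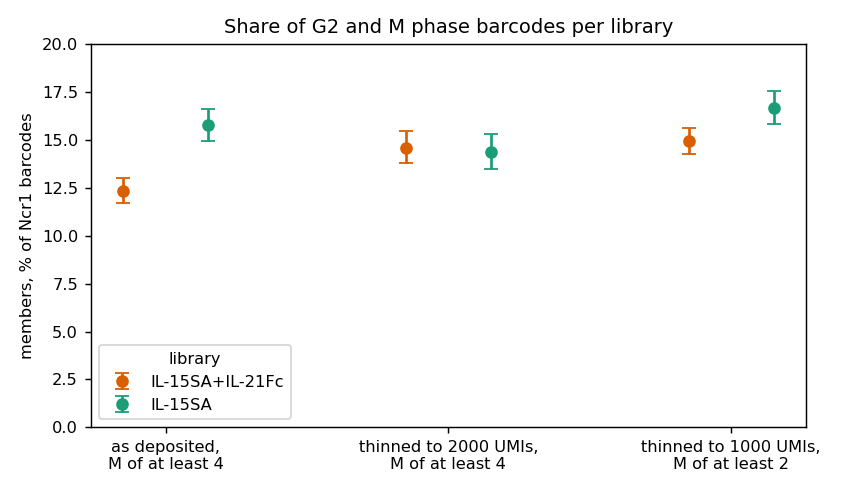
Share of Ncr1 barcodes that were members in each library, without thinning and after thinning, with exact binomial 95% intervals. The IL-15SA+IL-21Fc library was at 12.3% and the IL-15SA library at 15.8% without thinning, and at 14.6% and 14.4% at 2000 UMIs.

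Outside the rule, the genes of nearly every step of mitosis stood higher in members than in the other Ncr1 barcodes of both libraries. Counted with 1 CPM added to each level and at 20 CPM or more in either class, 123 of 5535 genes (2.22%) passed 2-fold upward and 1 (0.0181%) downward in the IL-15SA+IL-21Fc library. In the IL-15SA library 86 of 5455 (1.58%) were higher and 4 (0.0733%) lower. In both libraries together 84 of 5284 genes (1.59%) passed 2-fold upward and 0 (0%) downward, and 50 of the 84 belonged to the 12 mitosis lists, which hold 121 of the genes counted outside the rule. Since M chose the cells, genes that travel with it had to differ, so these counts carry no test. With M counted without Ccnb2 and a minimum of 2, the counts of higher genes were 49 and 21, and against barcodes with M and S of 0 they were 231 and 203. The median gene lay at a log2 ratio of 0.02 in each library.

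The 12 highest genes outside the rule were Cenpf, Aspm, Nek2, Ube2c, Pttg1, Pimreg, Troap, Arhgap19, Parpbp, Cdc25b, Cep89 and Plk1. Cenpf, a large kinetochore protein, was at 221 CPM in members and 35.0 CPM in the others of the IL-15SA+IL-21Fc library, a ratio of 6.31 (95% interval 5.77 to 6.91). In the IL-15SA library its 197 CPM in members stood against 36.4 CPM in the others, a ratio of 5.42 (4.95 to 5.94). Ube2c, the ubiquitin-conjugating enzyme of the anaphase-promoting complex, was at 624 against 102 CPM and at 593 against 125 CPM, ratios of 6.11 (5.80 to 6.45) and 4.74 (4.51 to 4.99). Pttg1, the securin that holds separase inactive until anaphase, was at 722 against 151 CPM and at 621 against 143 CPM. Plk1, the polo kinase of spindle formation and mitotic exit, was at 120.0 against 23.6 CPM and at 96.5 against 27.0 CPM. Troap, which encodes a protein of the spindle and centrosomes, differed most between the libraries among the 12, with ratios of 6.86 (5.49 to 8.58) and 3.60 (2.88 to 4.49), a difference that was not tested.

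Among cyclins and regulators of entry, all 4 counted members of the list of G2 and M cyclins and CDKs were at least 2-fold higher in both libraries, with median log2 ratios of 1.53 and 1.25. Cdk1, the kinase that cyclin B activates, was at 223 against 81.9 CPM in the IL-15SA+IL-21Fc library and at 229 against 103 CPM in the IL-15SA library. Its small partners Cks1b and Cks2 had ratios of 3.47 and 3.13 in the IL-15SA+IL-21Fc library and of 2.79 and 2.50 in the IL-15SA library. Cdc25b, a phosphatase that releases CDK1 from inhibition, was at 41.8 against 9.07 CPM and at 38.5 against 8.71 CPM. The list of entry control as a whole had medians of only 0.25 and 0.07, with 3 of 7 counted members at least 2-fold higher in each library. Foxm1, the transcription factor of the late cell cycle program, was thinly counted, at 6.31 against 3.26 CPM and at 3.40 against 2.92 CPM.

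Kinases, checkpoint and kinetochore genes followed. The mitotic kinase list had median log2 ratios of 1.42 and 1.37, with 6 of 9 and 5 of 8 counted members at least 2-fold higher, and Aurka, which matures the spindle poles, was at 66.0 against 13.4 CPM and at 56.2 against 16.4 CPM. The chromosomal passenger complex, which corrects wrong attachments and later directs cleavage, had medians of 1.501 and 1.17, and Birc5, its survivin subunit, was at 457 against 125 CPM and at 403 against 144 CPM. The spindle checkpoint list had medians of 1.28 and 0.90, led by Bub1b, which encodes BUBR1, at 60.1 against 13.4 CPM and at 54.6 against 13.9 CPM. Of 22 and 21 counted centromere and kinetochore genes outside the rule, 11 and 4 were at least 2-fold higher, with medians of 1.00 and 0.76, and all 22 and all 21 lay above 0.

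Motors and cleavage genes stood well above 0. The mitotic kinesins reached 1.61 and 1.30, with 10 of 11 counted members at least 2-fold higher in each library, and Kif20a, a motor of the spindle midzone, was at 87.4 against 18.7 CPM and at 70.01 against 19.5 CPM. The cytokinesis list had medians of 1.52 and 1.31, with 10 of 12 and 7 of 11 members at least 2-fold higher, among them Prc1, the bundler of midzone microtubules, at 303 against 89.6 CPM and at 289 against 96.7 CPM. The condensin and chromosome structure list had medians of 0.94 and 0.81, and Top2a, the topoisomerase that untangles sister chromatids, was at 419.7 against 164 CPM and at 390.0 against 199 CPM. The cohesin list was lower, with medians of 0.31 and 0.20 and 4 of 10 members at least 2-fold higher in each library. The anaphase-promoting complex list had medians of 0.35 and 0.22, with 3 of 17 and 2 of 18 at least 2-fold higher. Its activator Fzr1, at 98.6 against 32.1 CPM and at 83.4 against 38.0 CPM, was among them, while the subunit gene Anapc7 was at 26.7 against 15.6 CPM and at 25.1 against 18.0 CPM. In the annotation Kif20a overlaps Cdc23, Fzr1 overlaps Mfsd12, Cdc20 overlaps Elovl1 and Ube2c overlaps Tnnc2 on the opposite strand, and the sources used here do not give whether the counting used strand.

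**Figure D3:**
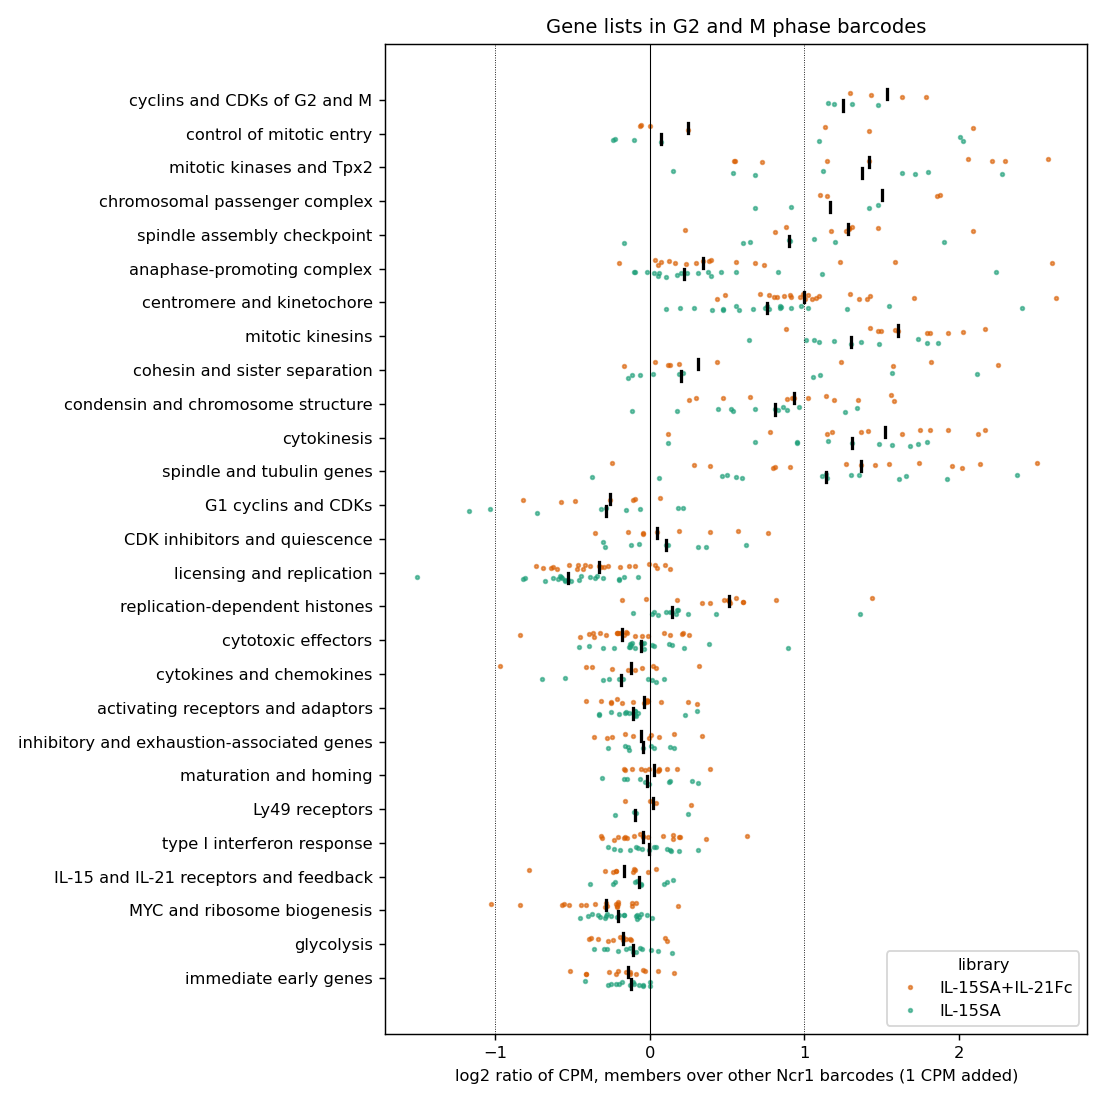
Each dot is 1 gene of a list outside the rule, placed by its log2 ratio of members over the other Ncr1 barcodes (1 CPM added), with IL-15SA+IL-21Fc above IL-15SA in each row and black ticks at list medians; dotted lines mark 2-fold. Mitotic kinesins had medians of 1.61 and 1.30, licensing and replication genes of -0.33 and -0.53.

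Set against S phase barcodes, members differed in only some of these genes. In the IL-15SA+IL-21Fc library 27 of 5589 genes (0.483%) passed 2-fold upward in members and 108 (1.93%) downward, and in the IL-15SA library 20 of 5533 (0.361%) were higher and 87 (1.57%) lower. Cenpf was at 221 CPM in members and 73.2 CPM in S phase barcodes of the IL-15SA+IL-21Fc library, a ratio of 3.02 (2.72 to 3.36), and at 197 against 67.0 CPM in the IL-15SA library, a ratio of 2.94 (2.66 to 3.26). Ube2c had ratios of 2.79 (2.62 to 2.96) and 2.53 (2.40 to 2.68), and Nek2, a kinase that separates centrosomes, of 2.66 (2.12 to 3.35) and 2.68 (2.17 to 3.34). Other mitosis genes stood at near the same level in both classes. Cdk1 had ratios of 1.07 (0.990 to 1.16) and 1.08 (1.008 to 1.16), Mki67, the proliferation marker of chromosome surfaces, of 1.10 (1.03 to 1.18) and 1.11 (1.05 to 1.18), and Bub1, a checkpoint kinase, of 1.02 (0.875 to 1.18) and 0.949 (0.820 to 1.10). Aurkb, the passenger complex kinase, was lower in members than in S phase barcodes, at 91.4 against 109 CPM and at 80.9 against 111 CPM. In the IL-15SA+IL-21Fc library 868 of the 1605 S phase barcodes had M of at least 4, and in the IL-15SA library 824 of 1592. The classes were parted by M against S, so the rule bears on this comparison. Part of the mitosis genes stood at near the same level in both classes. A smaller group, with Cenpf, Ube2c, Pttg1, Nek2 and Cdc25b, stood higher in members.

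Genes of DNA licensing and replication stood lower in members than in the others and than in S phase barcodes, but higher than in barcodes with M and S of 0. Summed over the list, they were at 2038 CPM in members, 2663 CPM in the others, 5632 CPM in S phase barcodes and 1157 CPM in barcodes with M and S of 0 of the IL-15SA+IL-21Fc library. In the IL-15SA library the sums were 2180.3, 3109, 5305 and 1477 CPM. The sums hold all 30 listed genes, of which 29 are outside the rule, so the rule sets part of them directly. The list had median log2 ratios of -0.33 and -0.53 against the other Ncr1 barcodes and of -1.44 and -1.27 against S phase barcodes, where 26 of 27 and 23 of 27 counted genes were at least 2-fold lower. All of these classes were set by M and S, and the others hold the S phase barcodes, so the rule bears on each of these comparisons. Pcna, the sliding clamp of DNA polymerases, was at 149 CPM in members, 241 CPM in the others and 480.0 CPM in S phase barcodes of the IL-15SA+IL-21Fc library. In the IL-15SA library it was at 157, 275 and 447 CPM. Mcm2, a subunit of the replicative helicase, was at 309.6 against 515 CPM in the others and at 369 against 570.0 CPM. Barcodes with M and S of 0 had Pcna at 124 CPM in the IL-15SA+IL-21Fc library and at 159.6 CPM in the IL-15SA library. Cdc6, a loader of the helicase, was at 13.7 against 21.6 CPM and at 8.06 against 24.7 CPM in the others, while against the 7.31 CPM of IL-15SA barcodes with M and S of 0 its log2 ratio turned to 0.12.

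Some genes of G1 and S entry were among the 12 lowest in members, and the list of G1 cyclins and CDKs lay slightly lower as a whole. E2f1, the activator of S phase genes, was at 10.5 against 19.3 CPM in the IL-15SA+IL-21Fc library and at 9.85 against 23.3 CPM in the IL-15SA library. Ccnd2, a D-type cyclin of G1, was at 68.9 against 122 CPM and at 66.25 against 111 CPM, and Ccne1, the cyclin of the G1 to S step, at 15.97 against 22.7 CPM and at 16.5 against 34.7 CPM. Tcp11l2, a gene of the 12 lowest in members, was at 12.4 against 25.5 CPM and at 8.42 against 20.03 CPM. The list of G1 cyclins and CDKs had medians of -0.25 and -0.28, with 1 of 7 and 2 of 9 counted members above 0 and 0 of 7 and 2 of 9 at least 2-fold lower. Inhibitors of CDKs did not share this pattern, with list medians of 0.04 and 0.10, and Cdkn2d, the p19 inhibitor of CDK4 and CDK6, was at 233 against 137 CPM and at 211 against 137 CPM.

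Histone genes split. Hist1h2bc, an H2B gene outside the rule, was at 671 CPM in members, 248 CPM in the others and 281 CPM in S phase barcodes of the IL-15SA+IL-21Fc library, and at 476, 185 and 193 CPM in the IL-15SA library. It was the only counted gene of the replication-dependent histone list that was at least 2-fold higher in members than in the others, and than in S phase barcodes, in both libraries. Outside the rule, 12 of 14 and 12 of 13 counted genes of this list lay above 0 against the others, with median log2 ratios of 0.51 and 0.15. Against S phase barcodes the medians were -0.58 and -0.65. Hist1h1b, a linker histone of the rule, was at 157 CPM in members and 459.9 CPM in S phase barcodes of the IL-15SA+IL-21Fc library. In the IL-15SA library it was at 138 and 411 CPM. S phase barcodes were chosen by S, so the direction of Hist1h1b was set by the rule. Near-identical histone copies can share reads, so single histone values are uncertain.

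NK identity and effector genes differed little between members and others. The 10 counted NK markers had median log2 ratios of -0.11 and -0.13, with 0 of 10 at least 2-fold apart in either library. Gzma, which encodes granzyme A, was at 14682 against 15686 CPM in the IL-15SA+IL-21Fc library and at 17242 against 17866 CPM in the IL-15SA library. Prf1, the perforin gene, was at 1202 against 1465 CPM and at 1768 against 1936 CPM, and Gzmb, the granzyme B gene, at 4613 against 5765 CPM and at 6337 against 7449 CPM. Of 22 and 21 counted cytotoxic effector genes 0 were at least 2-fold apart, with medians of -0.18 and -0.05. Ccl5, a chemokine that draws T cells, was lower in members, at 6260 against 8312 CPM and at 2233 against 3625 CPM. Ifng, the interferon gamma gene, was at 365 against 292 CPM and at 285 against 267 CPM. Activating receptors, inhibitory genes, Ly49 receptors and the type I interferon list had medians between -0.11 and 0.02.

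Growth genes lay slightly lower in members than in the others, which hold the S phase barcodes. Summed over the MYC and ribosome biogenesis list, the IL-15SA+IL-21Fc library had 5795 CPM in members and 6664 CPM in the others. Its S phase barcodes had 7767 CPM and its barcodes with M and S of 0 had 5895 CPM. In the IL-15SA library these sums were 7443.5, 8453, 9850 and 7083 CPM, so members stood above the barcodes with M and S of 0 there. The MYC and ribosome biogenesis list gave median log2 ratios of -0.28 and -0.20, with 1 of 20 counted members above 0 in each library. Srm, which encodes spermidine synthase, was at 36.2 against 74.7 CPM in the IL-15SA+IL-21Fc library, a log2 ratio of -1.03, and at 64.8 against 88.9 CPM in the IL-15SA library, a log2 ratio of -0.45. Bcl2, a survival gene, was at 74.4 against 129 CPM and at 109.6 against 144 CPM. The glycolysis list had medians of -0.17 and -0.11. All of these levels are shares of the UMIs of a class.

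Markers of cells that could pass or escape the sort were compared over whole lists. Among B cell markers, Ms4a1 and Cd79a had 0 UMIs in members of both libraries, and Cd79b, a chain of the B cell receptor complex, was at 1.05 against 1.05 CPM and at 0 against 0.305 CPM. All 3 neutrophil markers had 0 UMIs in members. Of the 6 macrophage or monocyte markers 3 and 4 were at 0, including C1qa, C1qb and Adgre1, but Cd68, a lysosomal protein gene, was at 58.6 against 35.7 CPM and at 44.4 against 25.8 CPM. The 8 T cell markers summed to 545 against 529 CPM and 442 against 430 CPM. Trbc2 held most of this, at 370 against 350 CPM and at 280 against 270 CPM. Cd3g was at 116 against 121 CPM and at 108 against 107 CPM, and Cd3d at 30.9 against 33.4 CPM and at 39.0 against 33.5 CPM. Trac was at 26.7 against 23.5 CPM and at 14.3 against 17.9 CPM. Cd8a had 0 UMIs in members, and Cd3e, a further CD3 chain gene, was at 0.420 against 0.766 CPM and at 0.358 against 1.52 CPM. The 5 markers of innate lymphoid cells type 1 summed to 123 against 117 CPM and 103 against 100.3 CPM. The 12 tumour or stroma markers, 6 of them in the rule, summed to 154 against 183 CPM and 83.6 against 98.9 CPM. Lum was at 0 in members, while Dcn was at 2.31 against 1.57 CPM and at 1.61 against 0.392 CPM. The 4 mast cell or basophil markers summed to 11.1 against 11.04 CPM and 19.2 against 12.1 CPM. Fcer1a was at 0, while Mcpt8 was at 5.04 against 4.43 CPM and at 13.97 against 7.40 CPM. What part these transcripts have in other values was not tested.

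Members were not uniform. Ordered by M into 3 ranges, 4 to 7, 8 to 15 and 16 or more, they numbered 393, 377 and 502 in the IL-15SA+IL-21Fc library, with median UMIs of 2539, 3069 and 4437, and 375, 344 and 472 in the IL-15SA library, with median UMIs of 2822, 3441 and 5894. Median UMIs were thus higher in each next range, and the part of depth in the series below was not tested. Ube2c was at 144, 383 and 968 CPM along the ranges in the IL-15SA+IL-21Fc library and at 174, 371 and 868 CPM in the IL-15SA library. Plk1 was at 27.9, 71.6 and 187 CPM, and at 28.7, 74.0 and 135 CPM. Top2a was at 157, 381 and 560.1 CPM, and at 204, 306 and 506 CPM. The summed mitotic kinesins were at 262, 579.5 and 938 CPM, and at 237, 496 and 833 CPM. Every step of these series was upward in both libraries. As M chose the members and also set the ranges, genes that travel with M had to rise along them. This order therefore carries no test.

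Other genes declined along the same ranges. Ccl5 was at 9009, 6547 and 4849 CPM in the IL-15SA+IL-21Fc library and at 2960, 2273 and 1910 CPM in the IL-15SA library. Prf1 was at 1446, 1218 and 1081 CPM, and at 1992, 1774 and 1672 CPM. Mcm2 was at 417, 337 and 246 CPM, and at 477, 412 and 304 CPM. The licensing and replication list without genes of the rule summed to 1883, 1991 and 1682 CPM, and to 2054, 2031 and 1888 CPM. It thus fell at each step only in the IL-15SA library. Gzma had no declining order in either library, at 15132, 15254 and 14185 CPM and at 18566, 16040 and 17225 CPM.

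Split by S instead, the 190 and 138 members without an S UMI held fewer replication transcripts than the 591 and 657 members with S of at least 4. The licensing and replication list, here without genes of the rule, summed to 956 CPM in the IL-15SA+IL-21Fc members without S. In those with S of at least 4 it summed to 2232 CPM. In the IL-15SA library these sums were 1334 and 2145 CPM. Ccnb2 differed less, at 2107 against 2564 CPM and at 1598 against 2012 CPM. Ube2c was at 246 against 810 CPM and at 242 against 729.4 CPM. The split was made on S, so genes that travel with S, such as replication genes, had to be lower in members without S. As M had to reach S, members with S of at least 4 were held to a higher M where S passed 4. This split therefore carries the rule, and nothing is read from it for genes that follow M or S. Median UMIs of the members without S and with S of at least 4 were 2505 against 4197 and 2753 against 5389. The part of depth in this split was not tested.

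**Figure D4:**
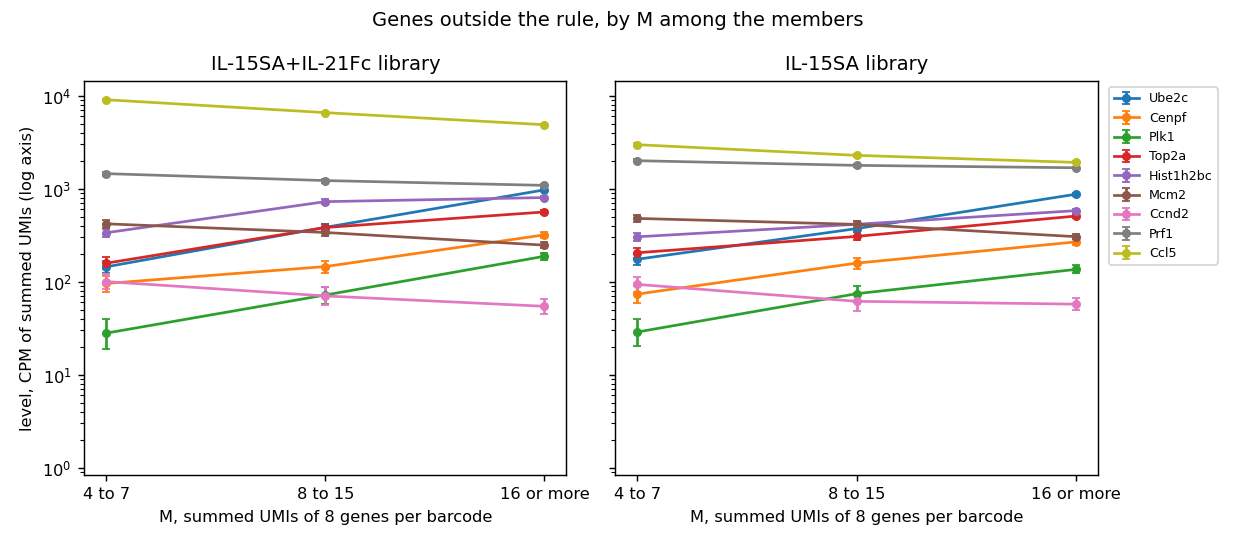
Levels (CPM, log axis) of 9 genes outside the rule in members with M of 4 to 7, 8 to 15 and 16 or more, with exact Poisson 95% intervals, 1 panel per library. Ube2c was at 144, 383 and 968 CPM and Ccl5 at 9009, 6547 and 4849 CPM along the ranges of the IL-15SA+IL-21Fc library.

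Chemokine, interferon-response, MHC class II and granzyme genes were among those furthest apart between the treatments in members. Of 5547 genes at 20 CPM or more in members of either library, 19 (0.343%) passed 2-fold upward and 12 (0.216%) downward in IL-15SA+IL-21Fc relative to IL-15SA. Over the other Ncr1 barcodes 7 of 5416 genes (0.129%) were higher and 9 (0.166%) lower, and all 19 and all 12 genes counted in members had the same sign there. Among them, 3 of the 19 and 1 of the 12 were over 5 times higher in barcodes past the stroma limit. With 981 whole member barcodes of each library drawn at random to match in UMIs, 11 genes were higher. With M counted without Ccnb2, 12 were higher.

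Ccl5 was at 6260 CPM in IL-15SA+IL-21Fc members and 2233 CPM in IL-15SA members, a ratio of 2.80 (95% interval 2.75 to 2.86), against a ratio of 2.29 in the other Ncr1 barcodes. Cd7, a receptor on NK and T lymphocytes, stood at 896 and 414 CPM, a ratio of 2.16, against 1.98 in the others. Cxcr4, the CXCL12 receptor, was at 26.1 and 8.95 CPM, a ratio of 2.91, against 2.07 in the others. Cma1, a chymase gene, was at 44.6 and 16.8 CPM. The interferon-induced genes Ifi27l2a and Rtp4 were at 317 and 144 CPM and at 82.4 and 38.1 CPM. Tox, a transcription factor of lymphocyte development and exhaustion, was at 25.4 and 11.6 CPM, and its ratio of 2.19 stood beside 1.89 in the others.

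The 2 highest ratios rested on few barcodes. Cd74, the invariant chain of MHC class II, was at 133 CPM in IL-15SA+IL-21Fc members and 27.9 CPM in IL-15SA members, and H2-Aa, a class II chain, at 54.2 and 10.9 CPM. In IL-15SA+IL-21Fc members 1 barcode held 429 of the 632 Cd74 UMIs and 1 held 172 of the 258 H2-Aa UMIs. Without the 9 and 5 members that had 5 or more Cd74 UMIs, Cd74 was at 22.8 and 7.92 CPM, a log2 ratio of 1.41 against 2.21 with them, and H2-Aa at 13.4 and 8.10 CPM, a log2 ratio of 0.66 against 2.21. H2-Eb1, the other class II chain, was at 29.6 and 8.77 CPM with them and 14.5 and 6.84 CPM without them.

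On the lower side stood granzymes of the cluster on chromosome 14, AA467197, Ifitm1 and Havcr2. AA467197 was at 10.1 CPM in IL-15SA+IL-21Fc members and 34.0 CPM in IL-15SA members, a 3.37-fold lower level. Gzmg was at 6.94 CPM in IL-15SA+IL-21Fc members and 39.4 CPM in IL-15SA members, a 5.68-fold lower level (3.93 to 8.46), against 2.40-fold lower in the other Ncr1 barcodes. In IL-15SA members 1 barcode held 62 of its 220 UMIs. With 981 whole member barcodes of each library drawn at random to match in UMIs, the log2 ratio of Gzmg was -0.58 in place of -2.35. Gzme was at 53.4 and 169 CPM, Gzmd at 80.7 and 245 CPM, Gzmf at 24.2 and 65.5 CPM and Gzmc at 492 and 954 CPM. Reads can be shared between the near-identical granzyme copies of this cluster, so each single value is uncertain. Ifitm1 encodes a membrane protein induced by interferon, and its level of 314 CPM in IL-15SA+IL-21Fc members stood 3.09-fold under the 970.4 CPM of IL-15SA members (2.91 to 3.27), against 2.39-fold lower in the others. Havcr2, which makes the inhibitory receptor TIM-3, stood at 8.20 and 25.1 CPM. Zbtb32, a transcriptional repressor, was at 58.0 and 146 CPM, a 2.51-fold lower level (2.19 to 2.89), against 1.72-fold lower in the others. Whether a treatment difference was larger in members than in the others was not tested.

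**Figure D5:**
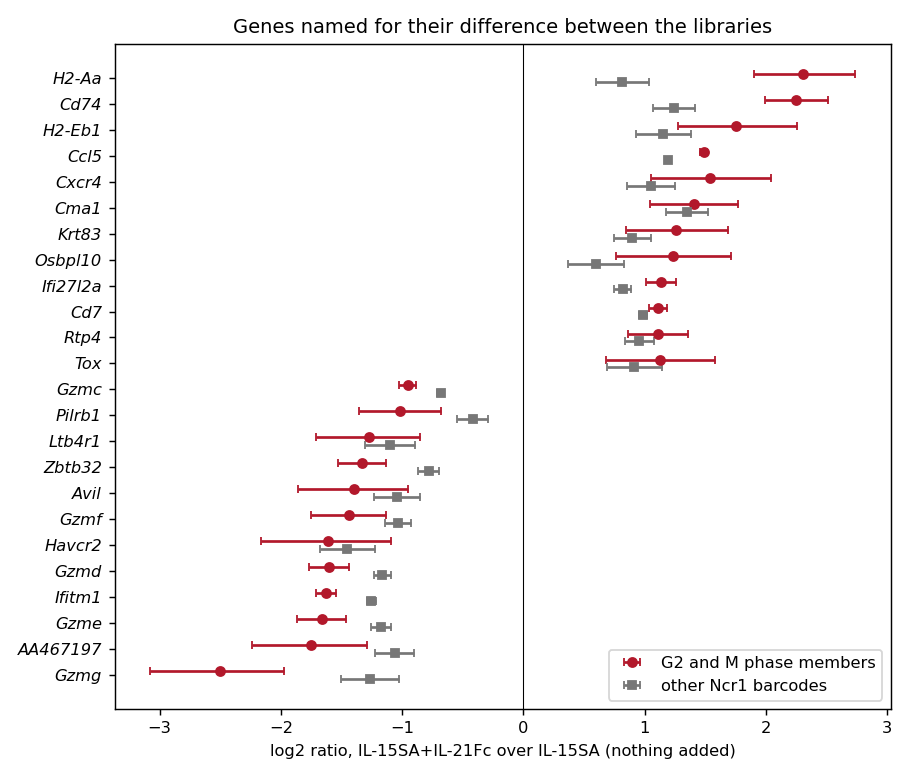
Log2 ratio of IL-15SA+IL-21Fc over IL-15SA for the 24 genes named for this comparison, in members (red circles) and the other Ncr1 barcodes (grey squares), with exact binomial 95% intervals. Ccl5 was 2.80-fold higher in members and 2.29-fold higher in the others, and Gzmg lay lowest.

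By list, the mitosis genes of members differed little between the treatments. The same M limit chose the members of both libraries, so the rule bears on this comparison for genes that travel with M. Nothing is read from it for the mitosis lists. The kinesins had a median log2 ratio of 0.17 in members and -0.23 in the others, the chromosomal passenger complex 0.16 and -0.30, and cytokinesis 0.17 and -0.07. Of their 11, 4 and 12 counted genes 0 were at least 1.5-fold apart in members. Over all counted genes 2.07% were higher and 1.3% lower by that fold, so with so few genes nothing is read from the 0. By the same fold 1 of 19 genes of the anaphase-promoting complex list, Ube2s, was higher, at a log2 ratio of 0.61. In the centromere and kinetochore list it was 1 of 25, Ska3, at 0.60. Genes of the rule are among those counted in both of these lists. Of the M genes themselves, Ccnb2 was at 2441 and 1858 CPM and Ccnb1 at 154 CPM in both libraries. The type I interferon list had a median of 0.48 in members and 0.43 in the others, with 18 of 18 counted genes above 0 and 6 at least 1.5-fold higher. The cytokine and chemokine list had 0.50 and 0.40, with 4 of 9 at least 1.5-fold higher. The cytotoxic effector list had -0.12 and -0.10, with 6 of 23 at least 1.5-fold lower and 1 higher. Perforin was 1.47-fold lower in members (1.42 to 1.52) and granzyme B 1.37-fold lower (1.35 to 1.40). The MYC and ribosome biogenesis list had -0.44 and -0.28, with 19 of 20 below 0, and the glycolysis list -0.37 and -0.34, with 13 of 13 below 0. Il21r, the receptor gene for interleukin 21, was at 18.1 and 15.4 CPM in members, a ratio of 1.17 (0.860 to 1.60), so no difference was detectable at this depth.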

How the data were processed

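Single-cell RNA-seq was made from sorted NK cells on a microwell platform, per the labels' protocols, with 1 library for each of 2 treatments. The authors deposited matrices of UMI counts per gene and barcode, not normalized. The submitters' processing notes name cutadapt, featureCounts, Seurat 4, Scanpy and mm10, without roles. For the aligner, the annotation and the use of strand: not given in the sources used here. The series title and the sample titles name the agents differently, and groups follow the sample titles.

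UMIs were summed per class and library and scaled to CPM. Ratios are tested over reference. Counts of genes used log2 with 1 CPM added and genes at 20 CPM or more, while printed ratios have nothing added and carry exact conditional binomial 95% intervals. Cells are not replicates, so no test was run. Scrublet's automatic threshold marked 0 and 2 barcodes and did not work, so no doublets were removed, and leaving out the 5% highest scores was an alternative. Named genes were those of the rule, the 12 highest and 12 lowest by member and by treatment ratio, and up to 4 per list, leaving out mitochondrial, ribosomal, haemoglobin, Gm and Rik genes and genes over 5 times higher past the stroma limit. One B cell marker of the lists is not reported here. The members and lists were chosen with earlier results of these data known. The calculations were tested on simulated data. Python 3.11.15, numpy 2.4.6, scipy 1.17.1, pandas 2.3.3, matplotlib 3.10.9 and scanpy 1.11.5 were used.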

Additional observations from a re-analysis of the deposited data

Results flagged for a closer look

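Among the named genes outside the rule, 12 had a log2 ratio of IL-15SA+IL-21Fc over IL-15SA above 0 in members and below 0 in the other Ncr1 barcodes with both 95% counting intervals clear of 0, and further genes had these signs with an interval that reached 0. It was 0.075 and -0.29 for Ube2c, 0.51 and -0.35 for Troap, 0.31 and -0.19 for Plk1, and 0.69 and -0.18 for Cdc6. It was 0.41 and -0.28 for Mastl, 0.23 and -0.27 for Aurka, 0.18 and -0.20 for Birc5, and 0.15 and -0.30 for Cdca8. It was 0.28 and -0.10 for Mad2l1, 0.24 and -0.23 for Fzr1, 0.10 and -0.14 for H2afx, and 0.11 and -0.28 for Top2a. Most of these are genes of the cell cycle, but named genes were drawn in part from the 12 highest in members and from 27 lists. Of these lists 12 are mitosis lists. The count has no share over all genes beside it, so nothing is read from it. The other Ncr1 barcodes differ in make-up between the libraries. S phase barcodes were 1605 of the 9037 others in the IL-15SA+IL-21Fc library and 1592 of 6359 in the IL-15SA library. The part of this make-up in the signs was not tested. The difference between members and others was not tested for any of these genes.

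By the same criterion, 3 named genes had log2 ratios of members over the other Ncr1 barcodes of opposite signs in the libraries. It was -0.12 in the IL-15SA+IL-21Fc library and 0.25 in the IL-15SA library for Ifitm1, -0.21 and 0.22 for Gzmd, and -0.32 and 0.22 for Zbtb32. This count also has no share over all genes beside it, so nothing is read from it. These differences were not tested.

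Barcodes left out of the comparisons also reached M of at least 4 and of at least S. Over the stroma limit this was 18.6% (138 of 743) in the IL-15SA+IL-21Fc library and 24.8% (60 of 242) in the IL-15SA library. Without an Ncr1 UMI it was 15.9% (220 of 1383) and 14.0% (83 of 594).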

How the results depend on the processing

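Of 768 ratios of members over others recomputed for 48 values, 626 moved by less than their counting interval, 141 by more and 1 reversed. A reversal was counted only where the main log2 ratio was at least 1 in size. Changes of sign in smaller ratios, if any, are among the other counts. Cdc6 in the IL-15SA library turned to 0.12 against barcodes with M and S of 0. Of 360 treatment ratios, 320 moved by less and 40 by more. The causes of these moves were not tested.

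The member shares, 12.3% for IL-15SA+IL-21Fc and 15.8% for IL-15SA, were 15.5% and 19.2% at M of at least 3, 9.82% and 12.5% at 6, 14.6% and 14.4% thinned to 2000 UMIs, and 14.9% and 16.7% thinned to 1000. With M above S the IL-15SA share was 14.8%.

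Genes higher in members, 123 and 86, became 49 and 21 with M without Ccnb2, 79 and 55 at 50 CPM, and 231 and 203 against barcodes with M and S of 0. Genes lower in members of the IL-15SA+IL-21Fc library, 1, were 0 at M of at least 3 or with 5 CPM added, 6 at M of at least 6, 2 with the median gene at 0, 9 against barcodes with M and S of 0, and 13 at 5 CPM or with others drawn to the UMIs of members. They were 3 with Ncr1 of at least 2, a stroma share under 0.05%, the highest Scrublet scores left out, M without Ccnb2 or a mean over barcodes. In the IL-15SA library the 4 lower genes were 2 at M of at least 3, 13 with M without Ccnb2, 1 with 5 CPM added or a mean over barcodes, 0 at 50 CPM, 16 at 5 CPM, 12 against barcodes with M and S of 0, and 7 with drawn UMIs. The 19 genes higher in IL-15SA+IL-21Fc members were 12 with M without Ccnb2, 11 with 5 CPM added or with drawn UMIs, 7 at 50 CPM and 78 at 5 CPM. The 12 lower ones were 5 at 50 CPM and 41 at 5 CPM. Settings with drawn UMIs kept whole barcodes picked at random to match in depth, and left the rest out. M without Ccnb2, and leaving out barcodes with 5 or more Cd74 UMIs, were chosen after seeing the data.

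No paired analysis was possible because each treatment has 1 library. Pooled cells, 1 library per group and genes with few UMIs limit every value.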
